A study of Caenorhabditis elegans with 12 samples.

Results

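The data are whole-animal mRNA counts of 7 genes of Caenorhabditis elegans that encode enzymes of mitochondrial fatty acid oxidation. The 7 are picked out by gene name, with earlier results of these data known, so that their counts below are those of a chosen set: acs-2 (F28F8.2), acdh-1 (C55B7.4), acdh-2 (C17C3.12), ech-6 (T05G5.6), ech-7 (Y105E8A.4), hacd-1 (R09B5.6) and kat-1 (T02G5.8). They are 7 of 45836 genes in the count table, and all 7 were among the 15344 genes that passed the filter on low counts. The study compared 4 genotypes with 3 libraries each, 12 in all. The eat-2(ad465);nhr-62(tm1818) double mutant and eat-2(ad465) carry a mutation in a pharyngeal acetylcholine receptor subunit that lowers food intake and serves as a genetic model of dietary restriction. The nhr-62(tm1818) single mutant and the double mutant carry a deletion in a gene of an HNF4-like nuclear receptor. That deletion removes the part for the DNA-binding domain, and a predicted short isoform without that domain may remain. Wild-type (N2) animals are the controls, and eat-2;nhr-62 animals are called double mutants below. All groups were kept at 20 °C on OP50 bacteria, synchronized by bleaching, and hand-picked as whole adults on day 0 of adulthood, before they bore eggs. Each library is a pool of animals, and the study describes the 3 of a genotype as biological replicates.

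Fatty acids are burned in mitochondria by a cycle that shortens the acyl chain and releases acetyl-CoA. An acyl-CoA synthetase first attaches the fatty acid to coenzyme A, an acyl-CoA dehydrogenase then makes the double bond, an enoyl-CoA hydratase adds water, a 3-hydroxyacyl-CoA dehydrogenase oxidizes the hydroxyl group, and a thiolase cleaves the chain. In C. elegans the intestine is the main site of fat storage and use, and the nuclear receptor NHR-49 with the mediator subunit MDT-15 activates several genes of the cycle, acs-2 among them. Some enzymes with these names also work in other pathways. ACDH-1 and ECH-6 act in the propionate shunt, which breaks down propionate without vitamin B12, and acdh-1 is widely used as a reporter of low vitamin B12 and of diet. The question here is how the mRNAs of these enzymes stood in eat-2 animals and how they stood when nhr-62 was mutated as well.

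Totals of counts per library ran between 18260311 and 44753083, and the lowest count of any of the 7 genes in any library was 14. Values are given as normalized counts, which are counts divided by the library's size after TMM scaling and brought to the mean library size. The eat-2 gene had few counts, 3.17 ± 2.74 in double mutants and 3.997 ± 3.19 in eat-2, against 11.2 ± 4.76 in nhr-62 and 14.5 ± 6.71 in N2 (SD, n = 3 each). Normalized counts of nhr-62 were 102 ± 18.9 in double mutants, 147.5 ± 18.9 in eat-2, 134 ± 7.28 in nhr-62 and 156 ± 32.7 in N2 (SD, n = 3 each). Neither mutation has to reduce reads summed over a gene's full length, and so the labels are only weakly checked by these values. The lists of intestinal, hypodermal, muscle, neuronal, sperm, oocyte and yolk genes used as tissue markers had no gene at 0 in any genotype.

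The animals with the eat-2 mutation had much less acs-2 and acdh-2 mRNA than animals without it, in both nhr-62 backgrounds. In contrast, acdh-1 and ech-6, the most abundant of the 7, and the less abundant hacd-1 did not pass the test in any comparison. A gene is said here to have risen or fallen where the Benjamini-Hochberg adjusted p of edgeR's quasi-likelihood test over all 15344 genes was under 0.05, the change was over 1.5-fold and the mean normalized count of the genotypes compared was over 10. In eat-2 against N2, 4 of 7 fell (acs-2, acdh-2, ech-7 and kat-1), beside 3.55% of all tested genes that fell, and 0 of 7 rose, beside 23.8% of all tested genes. All 7 log2 fold-changes were below 0, with a median of -0.70 beside 0.06 over all tested genes, and neither an unadjusted p under 0.05 nor DESeq2's test gave any increase. Against eat-2, 2 of 7 rose in double mutants (acdh-2 and ech-7), beside 0.749% of all tested genes, and 0 fell, beside 4.72%. The study had named both, from these same data, among the genes that nhr-62 mutation reversed. The count of 2 of 7 is therefore no separate evidence. The shares of all tested genes in this comparison depend on single libraries. The 839 genes called became 109 without double-mutant replicate 2 and 1513 without N2 replicate 2. The median in double mutants against eat-2 was 0.63 beside -0.03 over all tested genes, and again 0 of 7 were lower at an unadjusted p under 0.05 or in DESeq2's test. Relative to N2, acs-2 and acdh-2 fell in double mutants, 2 of 7 beside 1.36% of all tested genes, and 0 rose, beside 5.15%. In double mutants against nhr-62 the same count of 2 of 7 fell, acs-2 and acdh-2, beside 1.39% of all tested genes, and 0 rose, beside 9.25%. Increases were 0 in both of these comparisons also at an unadjusted p under 0.05 and in DESeq2's test. The comparisons share libraries (the eat-2 libraries stand in both of the first 2), so their values are given side by side and are not independent of each other.

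**Figure D1:**
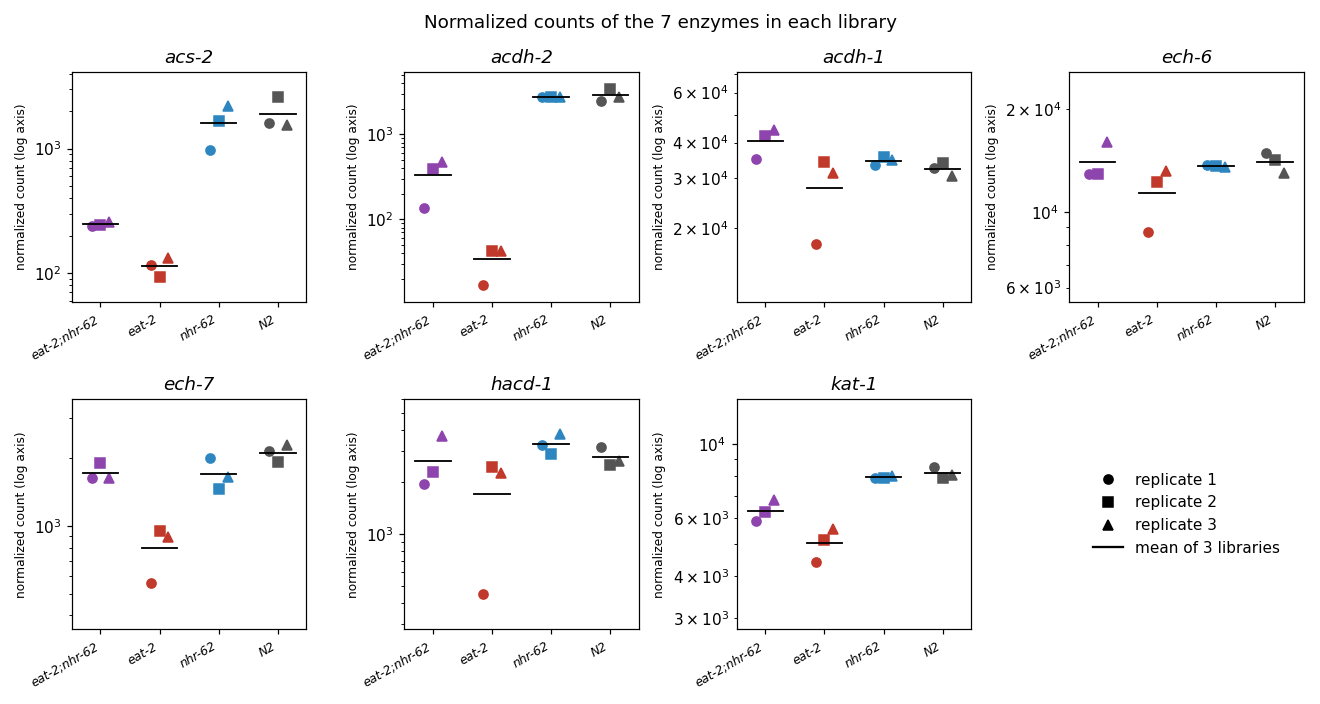
Normalized counts (y, log axis, a scale of its own for each gene) of the 7 genes in each of the 12 libraries, with the genotypes along x, replicates 1 to 3 as circle, square and triangle, and the mean of 3 libraries as a bar. The 3 eat-2 libraries of acdh-2 lie between 17.04 and 42.48 and those of N2 between 2478 and 3392, and eat-2 replicate 1 lies apart from the other eat-2 libraries for hacd-1 and acdh-1.

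ACS-2 is an acyl-CoA synthetase of mitochondria that activates fatty acids for oxidation, and its gene is known to be induced by fasting through NHR-49. On the WBcel235 assembly acs-2 lies on chromosome V, and no other gene's exons overlap its exons. Its normalized counts were 239, 244 and 258 in double mutants, 116, 93.5 and 131 in eat-2, 969, 1672 and 2220.2 in nhr-62 and 1605, 2588.5 and 1549.9 in N2. The eat-2 libraries were the lowest and the double-mutant libraries next, with no overlap between them, and both lay below every nhr-62 and N2 library, which overlapped each other. In eat-2, acs-2 fell 16.99-fold relative to N2 (log2 fold-change -4.09, standard error [SE] 0.33, adjusted p = 3.52e-05). In double mutants it fell 7.74-fold relative to N2 (log2 fold-change -2.95, SE 0.31, adjusted p = 0.000393) and 6.55-fold relative to nhr-62 (log2 fold-change -2.71, adjusted p = 0.000554). Between double mutants and eat-2 the log2 fold-change was 1.13 (SE 0.33), which missed the threshold at an adjusted p of 0.0544. That comparison is sensitive to the fit: it passed with an adjusted p of 0.000973 in DESeq2's test, 0.0483 with DESeq2's size factors, 0.0219 in a fit of only these genotypes, 0.0208 without nhr-62 replicate 1, 0.036 without nhr-62 replicate 3, 0.0494 without N2 replicate 1 and 0.0292 without N2 replicate 2. These 7 were the only passes among 22 alternatives in this comparison, over which the adjusted p reached 0.669. The nhr-62 and N2 libraries, which are not in this comparison, were also the most variable for acs-2, with coefficients of variation of 38.7% in nhr-62 and 30.5% in N2, against 3.94% in double mutants and 16.7% in eat-2.

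ACDH-2 and ACDH-1 belong to the acyl-CoA dehydrogenases, the flavoenzymes that open each round of the cycle. The acdh-2 gene lies on chromosome II (WBcel235). Its exons share 87 bases with ins-13, an insulin-like gene on the same strand, which had 0 or 1 counts in every library. As acdh-2 had the largest log2 fold-change among these enzymes, the primers used for its qPCR are shown, taken from the list of primers and written 5′ to 3′ with no part in capitals.
acdh-2 forward primer: gcgtgcaggaaccattgc
acdh-2 reverse primer: catattccccaacgattgatgtt
They are 18 and 23 bases long, and the RNA-seq counts below cover the exons of the whole gene and not only the stretch between them.

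Normalized counts of acdh-2 were 134, 391 and 468.5 in double mutants, 17.04, 42.48 and 42.45 in eat-2, 2744.5, 2738 and 2783 in nhr-62 and 2478, 3392 and 2733 in N2. Every eat-2 library was below every double mutants library, and these were below all libraries with an intact eat-2 gene, among which nhr-62 and N2 overlapped. In eat-2, acdh-2 fell 82.8-fold relative to N2 (log2 fold-change -6.37, SE 0.45, adjusted p = 2.15e-05). In double mutants it rose 9.81-fold relative to eat-2 (log2 fold-change 3.29, SE 0.46, adjusted p = 0.00693). It still lay 8.44-fold below N2 in double mutants (log2 fold-change -3.08, SE 0.35, adjusted p = 0.000739) and 8.11-fold below nhr-62 (log2 fold-change -3.02, adjusted p = 0.000739). The spread within genotypes was widest where the level was low, with coefficients of variation of 52.8% in double mutants and 43.2% in eat-2, against 0.891% in nhr-62 and 16.4% in N2. Replicate 1 was the lowest library of both genotypes with the eat-2 mutation.

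The second acyl-CoA dehydrogenase gene, acdh-1 on chromosome I, had the highest counts of the 7. Its normalized counts were 34892, 42088 and 44367 in double mutants, 17585, 34166 and 31207 in eat-2, 33407, 35702.5 and 34623 in nhr-62 and 32506, 33944 and 30638 in N2. Apart from eat-2 replicate 1, the libraries lay within 30638 and 44367, and the eat-2 and N2 libraries overlapped. The log2 fold-change was -0.23 in eat-2 against N2 (SE 0.19, adjusted p = 0.325) and 0.01 without eat-2 replicate 1. The value for double mutants against eat-2 was 0.55 (SE 0.19, adjusted p = 0.0762), or 0.31 without that library. The double-mutant libraries were all above the N2 ones, with a log2 fold-change of 0.32 (SE 0.19, adjusted p = 0.28).

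ECH-6 and ECH-7 are enoyl-CoA hydratases, the enzymes that add water to the double bond, and ECH-6 also takes part in the propionate shunt. The ech-6 gene on chromosome III had 12914, 12898 and 16036 normalized counts in double mutants, 8715, 12248.5 and 13125 in eat-2, 13714, 13608 and 13532 in nhr-62 and 14837, 14133 and 12997 in N2. Its libraries overlapped in every pair of genotypes compared. The log2 fold-change of ech-6 was -0.30 in eat-2 against N2 (SE 0.13, adjusted p = 0.0747), 0.30 in double mutants against eat-2 (SE 0.13, adjusted p = 0.142) and below 0.01 in size in double mutants against N2 (adjusted p = 0.986).

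Normalized counts of ech-7, on chromosome I, were 1624, 1899 and 1633 in double mutants, 556, 948 and 895 in eat-2, 1989, 1449 and 1647 in nhr-62 and 2135, 1911 and 2277 in N2. All 3 eat-2 libraries lay below every other library, the double mutants and nhr-62 libraries overlapped, and the N2 libraries lay just above those of double mutants. In eat-2, ech-7 fell 2.63-fold relative to N2 (log2 fold-change -1.40, SE 0.18, adjusted p = 0.000251). In double mutants it rose relative to eat-2 with a log2 fold-change of 1.102 (SE 0.18, adjusted p = 0.00821), a call that a test against a change of 1.5-fold did not make (adjusted p = 0.24). Against N2 the log2 fold-change in double mutants was -0.29 (SE 0.17, adjusted p = 0.282), and against nhr-62 it was 0.02 (SE 0.17, adjusted p = 0.945). With eat-2 replicate 1 left out, ech-7 kept its call in both comparisons that contain eat-2, at log2 fold-changes of -1.19 against N2 and 0.90 for double mutants against eat-2.

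HACD-1 is a 3-hydroxyacyl-CoA dehydrogenase, and its gene lies on chromosome V. Normalized counts of hacd-1 were 1951, 2279 and 3688 in double mutants, 449, 2429 and 2238.5 in eat-2, 3252, 2884 and 3768 in nhr-62 and 3205, 2517 and 2627 in N2. Here eat-2 replicate 1 was far below the remaining eat-2 libraries, which lay only just below the N2 range. The coefficient of variation within eat-2, 64.1%, was the highest of any of the 7 genes in any genotype. The log2 fold-change of hacd-1 was -0.70 in eat-2 against N2 (SE 0.49, adjusted p = 0.249) and -0.26 without eat-2 replicate 1. For double mutants against eat-2 it was 0.63 (SE 0.49, adjusted p = 0.399) and 0.18 without that library.

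KAT-1 is the ketoacyl-CoA thiolase that closes the cycle by releasing acetyl-CoA, and its gene lies on chromosome II. Normalized counts of kat-1 were 5851, 6226 and 6799 in double mutants, 4428.5, 5131 and 5548 in eat-2, 7896.5, 7899.8 and 8030.1 in nhr-62 and 8547, 7924 and 8093 in N2. The eat-2 libraries were the lowest and the double-mutant libraries intermediate, with no overlap between them or with the remaining libraries. In eat-2, kat-1 fell 1.63-fold relative to N2 (log2 fold-change -0.70, SE 0.08, adjusted p = 0.000112). This fold lies close to the limit of 1.5, and the call was lost with replicates 2 and 3 only (log2 fold-change -0.58), with a test against a change of 1.5-fold (adjusted p = 0.146) and with scaling by total counts (log2 fold-change -0.48). Scaling by total counts also moved the median log2 fold-change over all genes in this comparison, 0.06 with TMM, to 0.28. The remaining differences of kat-1 were below 1.5-fold and were not called: the log2 fold-change was 0.32 in double mutants against eat-2 (SE 0.08, adjusted p = 0.0337), -0.38 in double mutants against N2 (SE 0.08, adjusted p = 0.0119) and -0.34 in double mutants against nhr-62 (SE 0.08, adjusted p = 0.0162).

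**Figure D2:**
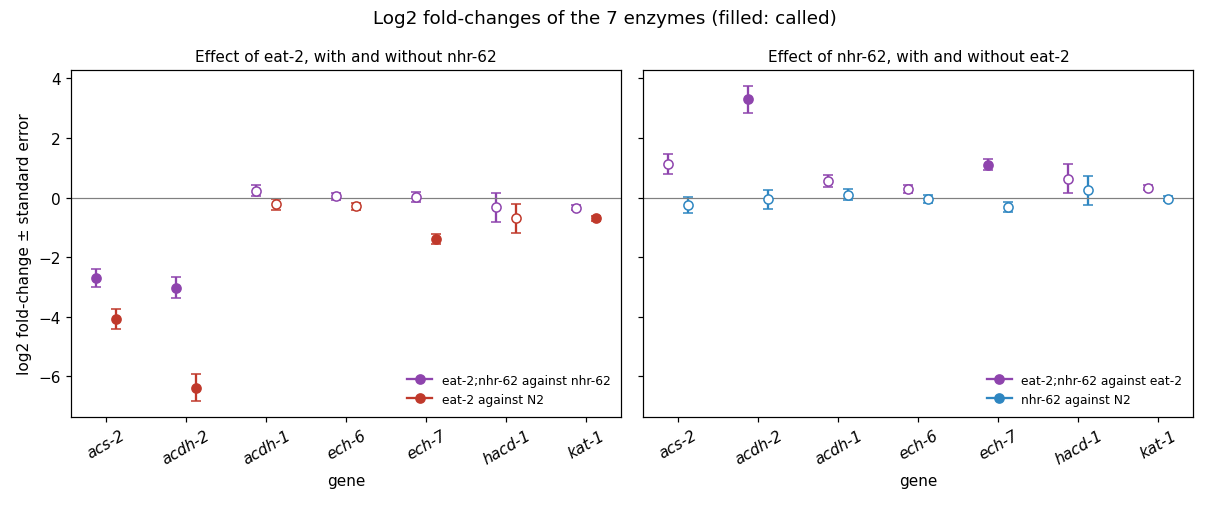
Log2 fold-changes (y) of the 7 genes (x) with standard errors, for double mutants against nhr-62 and eat-2 against N2 (left) and for double mutants against eat-2 and nhr-62 against N2 (right), each between 3 libraries and 3, with filled points for called genes. In the left panel acs-2 and acdh-2 lie between -2.71 and -6.37, and in the right panel the values of nhr-62 against N2 lie between -0.31 and 0.25, none of them filled.

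The nhr-62 deletion on its own went with no called change in these enzymes. In nhr-62 against N2 0 of 7 were called by edgeR, beside 0.104% of all tested genes in either direction, 0 had an unadjusted p under 0.05 and 0 were called by DESeq2. At so small a share, 0 of 7 says little about these enzymes in particular. The log2 fold-changes ran between -0.31 for ech-7 (SE 0.17) and 0.25 for hacd-1 (SE 0.49), with an adjusted p of 1 for each gene, and the libraries of both genotypes overlapped for each of the 7. The share of all tested genes whose libraries overlapped was not counted, so this overlap is no evidence of its own. Whether the eat-2 difference itself was larger with intact nhr-62 than with mutated nhr-62 was tested by the interaction of both mutations. The interaction was called for 1 of 7, beside 0.254% of all tested genes: ech-7, with a log2 difference of 1.41 (SE 0.25, adjusted p = 0.0445). That call is close to the threshold: it was lost when any 1 of 11 libraries was left out and remained only without eat-2 replicate 1. The study had named ech-7 and acdh-2, from these same data, among the reversed genes. The count of 1 of 7 is therefore no separate evidence either. For acdh-2 the interaction was larger, 3.35, but with a wider error and an adjusted p of 0.0523 (SE 0.56). It was called without double-mutant replicate 1 (3.67, adjusted p = 0.00108) and in DESeq2's test (adjusted p = 4.5e-05). Calls also came with DESeq2's size factors (adjusted p = 0.0499) and with replicates 2 and 3 only (adjusted p = 0.000191). These were 4 of 21 alternatives, over which the adjusted p reached 0.166. For acs-2 the value was 1.38 (SE 0.43, adjusted p = 0.218) and it too was called in DESeq2's test (adjusted p = 0.0197). For kat-1 it was 0.37 (SE 0.12, adjusted p = 0.207) and for the remaining genes between 0.34 and 0.45, not called.

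Levels of different genes were compared per length, as RPKM, which scales counts to exon length and to library depth, with exon lengths of 774 bases for ech-7 up to 2083 bases for acs-2. On this scale acdh-1 was the highest in every genotype, at 837 ± 102 RPKM in double mutants, 572 ± 183 in eat-2, 715 ± 23.8 in nhr-62 and 669.6 ± 34.3 in N2 (SD, n = 3 each). The level of ech-6 was 477 ± 61.8 RPKM in double mutants, 388 ± 79.8 in eat-2, 465 ± 3.13 in nhr-62 and 478 ± 31.7 in N2, and that of kat-1 was 165 ± 12.5 RPKM in double mutants, 132 ± 14.8 in eat-2, 208 ± 1.99 in nhr-62 and 214 ± 8.43 in N2. The lowest levels were those of acs-2 and acdh-2. For acs-2 they were 4.12 ± 0.162 RPKM in double mutants, 1.89 ± 0.315 in eat-2, 27.01 ± 10.5 in nhr-62 and 31.9 ± 9.74 in N2. For acdh-2 they were 6.14 ± 3.24 RPKM in double mutants, 0.63 ± 0.272 in eat-2, 51.1 ± 0.455 in nhr-62 and 53.2 ± 8.75 in N2. The genes with the largest log2 fold-changes were thus the least abundant of the 7. Counts of the 7 genes together made up 0.202%, 0.23% and 0.264% of all counts in the double-mutant libraries, 0.119%, 0.217% and 0.2% in the eat-2 libraries, 0.205%, 0.22% and 0.226% in the nhr-62 libraries and 0.213%, 0.219% and 0.197% in the N2 libraries. Between 49.8% and 63.8% of that sum came from acdh-1.

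Ratios of related genes within a library do not depend on the scaling between libraries. For every 100 reads of acdh-1 there were 0.385, 0.929 and 1.06 reads of acdh-2 in double mutants, 0.0969, 0.124 and 0.136 in eat-2, 8.22, 7.67 and 8.04 in nhr-62 and 7.62, 9.99 and 8.92 in N2. In this ratio eat-2 replicate 1 lay close to the other eat-2 libraries. The difference in mean log2 ratio was -6.22 in eat-2 minus N2 and 2.62 in double mutants minus eat-2. For every 100 reads of ech-6 there were 12.6, 14.7 and 10.2 reads of ech-7 in double mutants, 6.38, 7.74 and 6.82 in eat-2, 14.5, 10.65 and 12.2 in nhr-62 and 14.4, 13.5 and 17.5 in N2. For both ratios the eat-2 libraries were separated from those of double mutants and of N2, with an exact two-sided permutation p of 0.1, the smallest that 3 libraries against 3 can give. The ratio of ech-7 to ech-6 in double mutants against N2 had an exact permutation p of 0.3. For every 100 reads of ech-6, kat-1 had 45.3, 48.3 and 42.4 reads in double mutants, 50.8, 41.9 and 42.3 in eat-2, 57.6, 58.05 and 59.3 in nhr-62 and 57.6, 56.1 and 62.3 in N2. This ratio separated both genotypes with the eat-2 mutation from N2 (exact permutation p = 0.1 each), while double mutants and eat-2 overlapped (exact permutation p = 0.8). Over the 9 ratio comparisons the Benjamini-Hochberg adjusted values of these exact permutation tests were 0.129 where p was 0.1, 0.337 where it was 0.3 and 0.8 where it was 0.8, and none can pass a threshold of 0.05 in this design.

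**Figure D3:**
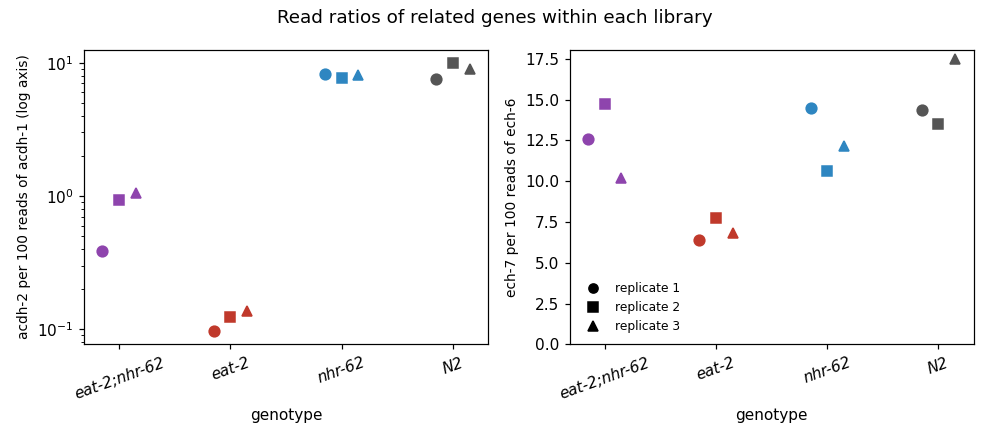
Reads of acdh-2 for every 100 reads of acdh-1 (left, log axis) and of ech-7 for every 100 reads of ech-6 (right, linear axis from 0) in each library, with the genotypes along x and replicates 1 to 3 as circle, square and triangle. The eat-2 libraries lie between 0.0969 and 0.136 on the left and between 6.38 and 7.74 on the right, and the N2 libraries between 7.62 and 9.99 and between 13.5 and 17.5.

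The 7 genes were also compared in how they varied between libraries of 1 genotype. On log2 CPM (log2 of counts scaled to library depth), with each genotype's mean taken off, all pairs of genes are read from the same 12 libraries, which differed in depth, so the correlations are descriptions. Excluding acs-2, the pairs of genes had Pearson correlations of 0.52 to 0.94, the highest being acdh-1 with hacd-1 (0.94), ech-6 with hacd-1 (0.93) and ech-6 with kat-1 (0.93). The correlations of acs-2 with the others lay between -0.45 and 0.12. In eat-2 replicate 1, acdh-1, acdh-2, ech-6, ech-7, hacd-1 and kat-1 were each the lowest of the 3 eat-2 libraries and acs-2 was not. Over the 11 libraries left without it, the pairs excluding acs-2 had correlations of -0.29 (ech-6 with ech-7) to 0.88. The highest was that of acdh-1 with acdh-2, 0.88 without that library and 0.81 with it, and the other pairs among these genes had lower correlations without it, such as ech-6 with kat-1 (0.83), acdh-1 with hacd-1 (0.60) and acdh-1 with ech-7 (-0.15). For acs-2 with ech-7 the correlation was -0.71 without it and -0.45 with it.

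Other genes of the pathway were taken from lists of named families, counted by the same rule. Of 12 other acyl-CoA dehydrogenases, 2 rose and 1 fell in eat-2 against N2, where 23.8% of all tested genes rose and 3.55% fell. The increases were acdh-4 (log2 fold-change 1.27, SE 0.21, adjusted p = 0.000806) and acdh-5 (1.101, SE 0.28, adjusted p = 0.00635), and the decrease was acdh-9 (-1.01, SE 0.11, adjusted p = 6.77e-05). Exons of acdh-4 overlap a small RNA gene. Normalized counts of acdh-9 were 2034 ± 97.2 in double mutants, 1682 ± 318 in eat-2, 3212 ± 27.6 in nhr-62 and 3397 ± 168 in N2 (SD, n = 3 each). Of 8 other enoyl-CoA hydratases 1 rose, ech-8 (0.63, SE 0.17, adjusted p = 0.0079), a call lost without eat-2 replicate 1 (0.48), N2 replicate 1 (0.58) or N2 replicate 3 (0.57). Of 6 other thiolase and hydroxyacyl-CoA dehydrogenase genes, 1 rose and 2 fell. The genes that fell were T02G5.4 (-0.91, SE 0.13, adjusted p = 0.000367) and T02G5.7 (-0.60, SE 0.16, adjusted p = 0.0102), thiolase-like genes whose identifiers share a clone name with kat-1. The T02G5.7 call was lost without eat-2 replicate 1 (-0.40) or N2 replicate 2 (-0.58). The increase was F54C8.1 (0.74, adjusted p = 0.0221), whose exons overlap those of emb-30 and whose call was lost without eat-2 replicate 1 (0.65), N2 replicate 2 (0.46) or N2 replicate 3 (0.78). The median log2 fold-changes of these lists in eat-2 against N2 were 0.10, -0.20 and -0.25, beside -0.70 for the 7 genes and 0.06 for all tested genes. Members of these families among the 7 were set apart with earlier results known, so the contrast depends in part on that choice. In double mutants against eat-2, none of these 26 genes was called by edgeR, with medians of -0.03, 0.05 and 0.16. Among all tested genes 0.749% rose and 4.72% fell there. In the order of these lists, 5, 1 and 3 had an unadjusted p under 0.05 in that comparison and DESeq2 called 2, 0 and 0. For counts at an unadjusted p, here and below, the share of all tested genes was not counted. At an edgeR adjusted p under 0.05 with no fold limit, 8005 of 15344 genes passed in eat-2 against N2. In double mutants against eat-2, 1645 passed.

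The genes for entry of fatty acids into mitochondria and for their activation were counted in the same way. Of 7 carnitine shuttle genes, which carry acyl groups across the mitochondrial membrane, 1 rose in eat-2 against N2: cpt-4, with a log2 fold-change of 2.08 (SE 0.47, adjusted p = 0.00463). Normalized counts of cpt-4 were 300 ± 94.5 in double mutants, 358 ± 137 in eat-2, 60.8 ± 35.9 in nhr-62 and 84.8 ± 37.9 in N2 (SD, n = 3 each). Of 20 other acyl-CoA synthetase genes, 6 rose and 1 fell, with a median of 0.27. Among all tested genes 23.8% rose and 3.55% fell in this comparison, so that neither count stands far from the overall share. Those with the smallest p-values among the increases were acs-18 (log2 fold-change 1.37, adjusted p = 0.00168), acs-10 (1.43, adjusted p = 0.0022) and acs-6 (0.86, adjusted p = 0.00419), and the decrease was acs-19 (-0.79, SE 0.10, adjusted p = 0.00021). Against eat-2, 1 of 20 synthetase genes fell in double mutants, beside 4.72% of all tested genes. This gene was acs-6 (-0.69, SE 0.20, adjusted p = 0.0471). Its call was lost when any of 10 of the 12 libraries was left out, at log2 fold-changes between -0.78 and -0.53. The 3 genes of electron transfer from acyl-CoA dehydrogenases were not called by edgeR or DESeq2 in either comparison, with medians of -0.28 in eat-2 against N2, where 2 had an unadjusted p under 0.05, and 0.19 in double mutants against eat-2, where 2 had.

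Of the propionate shunt genes other than acdh-1 and ech-6, hach-1 and alh-8 fell in eat-2 against N2, 2 of 3. Among all tested genes 3.55% fell and 23.8% rose there, and in double mutants against eat-2 4.72% fell and 0.749% rose. HACH-1 is the hydrolase that follows ECH-6 in the shunt, and ALH-8 the dehydrogenase of its last step. Normalized counts of hach-1 were 7271 ± 849 in double mutants, 5196 ± 679 in eat-2, 11423 ± 731 in nhr-62 and 11143 ± 607 in N2 (SD, n = 3 each). The log2 fold-change of hach-1 was -1.1 in eat-2 against N2 (SE 0.11, adjusted p = 3.43e-05), and 0.48 in double mutants against eat-2 (SE 0.10, adjusted p = 0.0194), below 1.5-fold and not called. For alh-8 these values were -0.61 (SE 0.08, adjusted p = 0.000263) and 0.51 (SE 0.08, adjusted p = 0.00722), the second again below 1.5-fold, and the first was no longer called without eat-2 replicate 2 (-0.57) or N2 replicate 1 (-0.54). The exons of alh-8 overlap those of F13D12.8. Genes of the vitamin B12-dependent propionate pathway were not called by edgeR or DESeq2 in either comparison, 0 of 7 in each. Their medians were -0.25 in eat-2 against N2, with 4 of 7 at an unadjusted p under 0.05, and 0.11 in double mutants against eat-2, with 2 of 7. Of 7 genes of branched-chain amino acid breakdown only alh-8, which both lists hold, was called in eat-2 against N2, where 6 of 7 were lower and 1 higher at an unadjusted p under 0.05. With no fold limit, 3450 of 15344 tested genes were lower and 4555 higher there at an edgeR adjusted p under 0.05. In this list 0 of 7 were called in double mutants against eat-2 by edgeR or DESeq2, with 3 at an unadjusted p under 0.05.

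The transcription regulators known to act on these pathways were not called in either comparison, 0 of 9 by edgeR and by DESeq2, with 4 and 3 at an unadjusted p under 0.05. Among all tested genes, 23.8% rose and 3.55% fell in eat-2 against N2, and 0.749% rose and 4.72% fell in double mutants against eat-2. Without the fold limit, 8005 and 1645 of 15344 tested genes had an edgeR adjusted p under 0.05 in these comparisons. The receptor gene nhr-49 had 4286 ± 382 normalized counts in double mutants, 4257 ± 198 in eat-2, 4437.5 ± 41.0 in nhr-62 and 4282 ± 134 in N2 (SD, n = 3 each), with a log2 fold-change of -0.01 in eat-2 against N2 (SE 0.07). Its cofactor gene mdt-15 had a log2 fold-change of 0.27 there (adjusted p = 0.0684). Below 1.5-fold but at adjusted p-values under 0.05 were nhr-80 (0.54, adjusted p = 0.00516), nhr-68, a regulator of the propionate shunt (0.52, adjusted p = 0.00272), and nhr-66 (-0.30, adjusted p = 0.00242). Exons of mdt-15, nhr-66 and sbp-1 overlap those of other genes. The log2 fold-changes of nhr-10, sbp-1 and nhr-13 were -0.02, 0.06 and -0.17. In double mutants against eat-2 the 9 values lay between -0.53, for nhr-62 itself, and 0.33, for nhr-13.

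**Figure D4:**
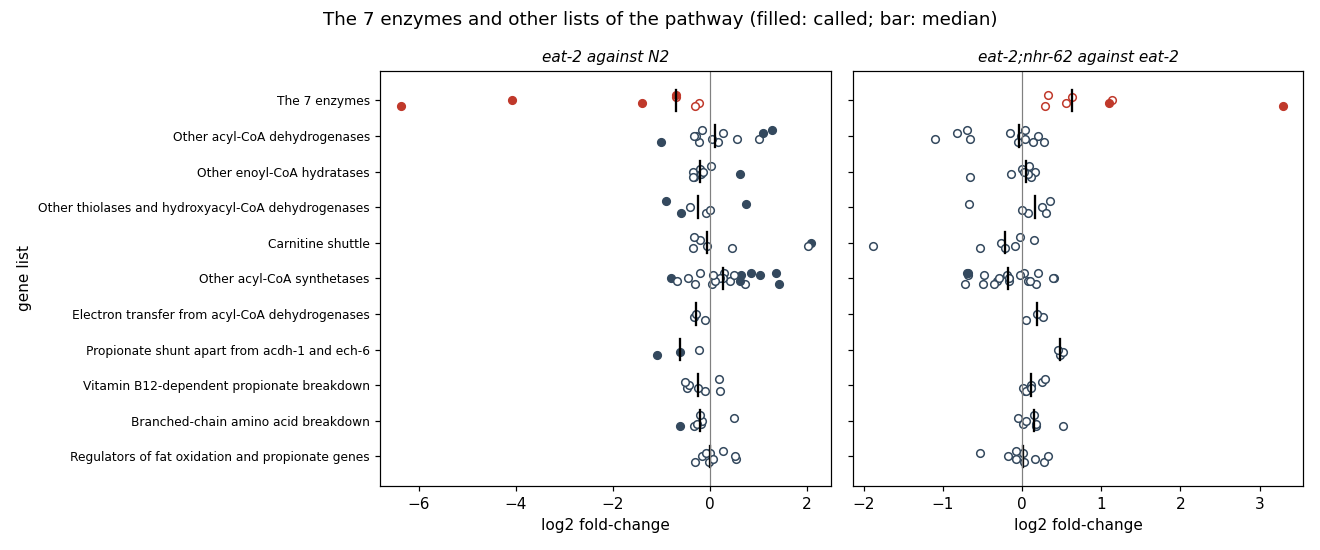
Log2 fold-changes (x) of the 7 genes (top row) and of the genes in 10 other lists (rows), in eat-2 against N2 (left) and in double mutants against eat-2 (right), 1 point per gene, filled where called, with a bar at each list's median. The median of the 7 genes is -0.70 on the left and 0.63 on the right, and those of the other lists lie between -0.61 and 0.27 on the left and between -0.22 and 0.48 on the right.

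For each of the 7, the genes most like it over the 12 libraries were found by the Pearson correlation of log2 CPM among 14745 genes, with the 7 themselves left out. The 12 points are 3 libraries of each of 4 genotypes, so these correlations mostly describe differences between genotypes. For acdh-2 they were vwa-8 (0.99), the yolk gene vit-5 (0.99) and hach-1 (0.99). For kat-1 they were the yolk gene vit-4 (0.99), hach-1 (0.99) and acs-19 (0.98), and for ech-7 trap-3, let-767 and nra-4 (0.97, 0.96 and 0.96). For hacd-1 they were C54E4.5 (0.98) and the fatty acid elongase genes elo-2 (0.97) and elo-5 (0.96), and for acdh-1 nlp-31, hphd-1 and tnt-3 (0.95 each), where hphd-1 encodes the shunt dehydrogenase that follows HACH-1. For acs-2 they were plrg-1, T05A12.4 and set-10 (0.98, 0.98 and 0.97), and for ech-6, of which hacd-1 among the 7 was a closer match (0.93), T15B7.1, F35A5.8 and got-2.2 (0.93, 0.93 and 0.92). Exons of vit-4, set-10, T15B7.1 and elo-5 overlap those of another gene, so reads there may have been assigned to either. Among the 7 themselves acdh-2 and kat-1 were most alike (0.98), then acs-2 and acdh-2 (0.95), while acs-2 and acdh-1 had a correlation of 0.20.

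Markers of some tissues moved with the eat-2 mutation. The animals were measured whole, so that fewer cells of a type and less RNA per cell cannot be told apart. Beside the counts of markers below, 23.8% of all tested genes were higher and 3.55% lower in eat-2 against N2. In double mutants against eat-2, 0.749% were higher. Summed CPM of the 6 yolk genes, which the intestine expresses for the oocytes, were 38772 to 50412 in double mutants, 23351 to 28065 in eat-2, 62754 to 71246 in nhr-62 and 65768 to 71679.8 in N2. All 6 yolk genes fell in eat-2 against N2 (median log2 fold-change -2.82), and 5 of 6 rose in double mutants against eat-2 (median 1.02). The ranges of the yolk sum thus followed the same order of genotypes as acs-2, acdh-2 and kat-1, with eat-2 lowest and double mutants next. Other intestinal markers, 10 genes that include the gut factor elt-2, summed to 3376 to 3899 CPM in double mutants, 2834 to 3014.5 in eat-2, 2977 to 3727 in nhr-62 and 3138 to 4001 in N2, with 2 of 10 higher and 2 of 10 lower in eat-2 against N2 and a median of 0.11. Oocyte and eggshell markers summed to 8913 to 9356.5 in double mutants, 6215 to 7230 in eat-2, 9652 to 9919 in nhr-62 and 8818 to 9942 in N2, with 1 of 12 lower in eat-2 against N2 and a median of -0.44. All 12 had an unadjusted p under 0.05 for a lower level there, and all 12 for a higher level in double mutants against eat-2, where 1 of 12 was called and the median was 0.40. At an edgeR adjusted p under 0.05 with no fold limit, 3450 of 15344 tested genes were lower in eat-2 against N2. In double mutants against eat-2, 700 were higher by that rule. Sperm markers summed to 107 to 147 in double mutants, 166 to 219 in eat-2, 74.4 to 90.5 in nhr-62 and 61.5 to 150 in N2, with 6 of 12 higher in eat-2 against N2, and neuronal markers to 371 to 374 in double mutants, 391 to 426 in eat-2, 288 to 316 in nhr-62 and 296 to 314 in N2, with 4 of 7 higher. Of 6 hypodermal markers 1 was higher in eat-2 against N2. This count and the 2 of 10 higher intestinal markers lie near the share of all tested genes. Of 6 body wall muscle markers 0 were called by edgeR or DESeq2 and 2 had an unadjusted p under 0.05. The part of these shifts in the values of the 7 genes was not tested.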

How the data were processed

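A deposited table gives, for each gene, the raw count of reads in 12 libraries. The authors made these counts by removing adapters, mapping single-end reads with TopHat 1.3 so that each read had 1 position, and running htseq-count on an Ensembl gene set. Its strand setting was not given in the sources used here. Every column of the table was used (columns of per-sample values not used: 0). Depth ran between 18260311 and 44753083 counts.

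Here edgeR 4.0.16 (R 4.3.3, limma 3.58.1) was applied with filterByExpr, TMM and a robust quasi-likelihood fit holding all 12 libraries. Benjamini-Hochberg adjustment covered all 15344 genes tested. A call required an adjusted p under 0.05, a change over 1.5-fold and a mean normalized count over 10, the thresholds of the authors. Each standard error is the log2 fold-change divided by the root of F. Symbols, chromosomes and exon lengths came from the Ensembl WBcel235 annotation, which matched 97.2% of identifiers, although the counts rest on an older build. Marker sums are in CPM. Log2 CPM used a prior count of 2.

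The 7 genes, the gene lists and the rule for named genes were chosen with earlier results of these data known. That rule took all 7 genes, up to 4 called genes per list with the smallest p in each of the first 2 comparisons, every listed regulator, and the 3 genes most correlated with each of the 7. The symbols acs-8 and mccc-2 matched no gene in the table, and hadb-1 and B0303.3 named the same gene. The test was also run on simulated counts, drawn with the trend of spread over all genes and not with each gene's own spread. That run does not cover a library far from the others, such as eat-2 replicate 1 for hacd-1. Alternatives were DESeq2 1.42.0 (its size factors and its test), total-count scaling, TMM without yolk and sperm genes, a test against 1.5-fold, no filter, the adjusted p alone, fits of only the genotypes compared, a replicate block, replicates 2 and 3 only, and each library left out. Their use on the other lists was added after the values were seen. Deviations of libraries with the same replicate number were correlated between the genotypes compared. For replicate 1 the correlations were all positive, between 0.0234 and 0.289. For replicates 2 and 3 they had both signs, between -0.22 and 0.3.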

Additional observations from a re-analysis of the deposited data

Results flagged for a closer look

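The response of ech-7 to the eat-2 mutation differed between nhr-62 backgrounds by a log2 difference of 1.415 (SE 0.25, adjusted p = 0.0445), as tested by the interaction term of edgeR's quasi-likelihood fit. In animals with the nhr-62 deletion the log2 fold-change of ech-7 was 0.02 for double mutants against nhr-62, and in animals without it -1.40 for eat-2 against N2. The adjusted p was between 1.01e-05 and 0.435 over 21 alternatives, 15 of which lost the call. With 3 libraries per genotype, single libraries far from the others were not tested for. The study had named ech-7, from these same data, among the genes that nhr-62 mutation reversed.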

How the results depend on the processing

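Of 131 recomputed counts of called genes among the 7, 113 were the same or within 1.5 times. In double mutants against eat-2 a test against a 1.5-fold change called 1 instead of 2. For the interaction, in place of 1 call, there were 3 in DESeq2's test, 2 with DESeq2's size factors and 2 with replicates 2 and 3 only, and 0 with total counts, a 1.5-fold test, no filter or the replicate block. Leaving out single libraries gave 0 to 1, and without double-mutant replicate 1 the gene called was acdh-2 in place of ech-7. Of 917 recomputed log2 fold-changes of the 7 genes, 850 kept direction and call, 15 gained a call, 19 lost one and 33 changed sign, all of them values that were not called.

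With total counts the sign changed for acdh-1 in eat-2 against N2 (0.003) and, in double mutants against N2, for ech-6 (0.111) and hacd-1 (0.045). That scaling moved the median over all genes to 0.284 (0.059 with TMM) in eat-2 against N2 and to 0.136 (0.023) in double mutants against N2. With no filter ech-6 was at 0.01 in double mutants against N2. With replicates 2 and 3 only the values were 0.027 for acdh-1 in eat-2 against N2, 0.102 for ech-6 and 0.223 for hacd-1 in double mutants against N2, 0.013 for ech-6 and 0.004 for kat-1 in nhr-62 against N2, and -0.031 for hacd-1 in the interaction. With DESeq2's size factors and with its test ech-7 was at -0.012 in double mutants against nhr-62. With single libraries left out the ranges were -0.411 to 0.013 for acdh-1 in eat-2 against N2; -0.108 to 0.052 for ech-6 and -0.387 to 0.103 for hacd-1 in double mutants against N2; -0.516 to 0.037 for acs-2, -0.13 to 0.081 for acdh-2, -0.089 to 0.028 for ech-6 and -0.067 to 0.01 for kat-1 in nhr-62 against N2; -0.086 to 0.087 for ech-6 and -0.095 to 0.15 for ech-7 in double mutants against nhr-62; and -0.065 to 0.733 for hacd-1 in the interaction. The cause was not tested.

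The replicate numbers are not stated to pair libraries. Correlations of deviations between same-numbered libraries ran between -0.22 and 0.3. The replicate block changed no call of the 7 genes other than that of ech-7 in the interaction (adjusted p = 0.0787). Over all tested genes it gave 1463 calls in place of 839 in double mutants against eat-2. Of 396 recomputed values of named genes from other lists, 51 lost their call and none changed sign. The lowest counts of the 7 genes were those of acdh-2 in eat-2 (14, 45 and 34), and the effect of depth on its error was not tested. The 3 libraries per genotype limit the precision. The p-values of edgeR's test set each difference against a spread estimated from all 12 libraries together and drawn toward that of all genes.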
